A study of Homo sapiens with 6 samples.

Results

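Polycomb group genes encode chromatin complexes that keep developmental and growth-restraining genes silent. Expression of 9 of them was followed in mitotic fibroblasts with and without activated Ras. The genes were chosen by symbol from the 63129 genes of the deposited table, and each symbol matched a single row. They are EZH2, EZH1, EED, SUZ12 and JARID2, of Polycomb repressive complex 2 (PRC2), and BMI1, CBX7, RNF2 and SCMH1, of Polycomb repressive complex 1 (PRC1). PRC2 methylates histone H3 through its catalytic subunit, EZH2 or EZH1, and is held together by SUZ12 and EED. PRC1 binds this mark through a CBX protein and ubiquitinates histone H2A through RNF2 or RING1 with a PCGF partner such as BMI1. In fibroblasts both complexes are known for silencing the INK4 locus, whose release accompanies senescence.

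The cells were ERRAS cells, IMR90 human fetal lung fibroblasts that stably carry an H-RasV12 switched on by tamoxifen (ER:RAS) brought in by a retroviral vector. Control mitotic cells (n = 3) carried the construct but were left uninduced, and Ras-induced mitotic cells (n = 3) had been induced for 4 days. The labels give the inducer as 100 nM tamoxifen, whereas the study's methods name 4-hydroxytamoxifen and dose it by weight. Both groups were grown under G418 at low oxygen, were arrested with 1 μM Dimethylenastron (DME), which blocks the spindle motor Eg5, and were collected as detached mitotic cells. The study made ERRAS cells by transduction and speaks elsewhere of separately derived populations, but which population gave these libraries is not given in the sources used here. Expression is given as FPKM, a fragment count divided by the length of the transcript and by the size of the library. Levels can therefore be set side by side between genes, but as shares of a library, so that fewer cells with a transcript and less of it per cell cannot be told apart. Means are followed by the SD over the 3 libraries of a group (n = 3).

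All 9 genes exceeded a mean of 1 FPKM over the 6 libraries and were among the 13993 genes tested. Fold changes are on the log2(FPKM + 1) scale, which understates changes of low genes, and a gene was called when its Benjamini-Hochberg adjusted p from limma was at or under 0.05. Depth is known only relative to the first control library. By the steps between low values it lay between 0.950 and 1.17 in the other controls and between 0.847 and 1.13 in the Ras-induced libraries. The H-RasV12 is fused to the ligand-binding domain of the estrogen receptor, so that tamoxifen acts on the protein and the HRAS transcript is no direct check of induction. HRAS measured 1140 to 1176 FPKM in control and 1439 to 1847 FPKM in Ras-induced libraries (adjusted p = 0.0431 from limma, but called under only 3 of 13 alternative settings and in no fit that left out a library). Of 10 targets of ERK, 7 were higher and 1 was lower (80%, against 16.7% of all tested genes). DUSP6, a phosphatase that acts on ERK, measured 3.31, 1.92 and 2.23 FPKM in control and 39.8, 21.2 and 37.2 FPKM in Ras-induced libraries (log2 fold change 3.24, adjusted p = 0.00198 from limma). The lower gene was FOSL1, a partner of JUN in AP-1, at 271.4 ± 28.5 and 119.6 ± 15.7 FPKM (log2 fold change -1.18, adjusted p = 0.00366 from limma). All 8 fibroblast markers were tested. VIM lay between 1924 and 2564 FPKM in all libraries, whereas COL1A1, COL1A2, COL3A1 and THY1 were below control in every Ras-induced library, with log2 fold changes of -1.43, -1.30, -1.25 and -1.19. COL1A2 and THY1 were called, and COL1A1 and COL3A1 were not (adjusted p = 0.0501 and 0.0553 from limma). The endothelial marker PECAM1 was listed at 0 throughout. The leukocyte marker PTPRC reached at most 0.0140 FPKM, whereas the keratin KRT5 was present at 7.77 to 18.7 FPKM. Of 5 epithelial markers 3 were tested and 0 called, with a sum of 22.7 to 36.2 FPKM in control and 21.8 to 25.5 FPKM in Ras-induced libraries. EPCAM, which did not reach the mean of 1 FPKM needed for the test, measured 1.05, 0.880 and 1.80 FPKM in control and 0.272, 0.167 and 0.424 FPKM in Ras-induced libraries, without overlap. The endothelial sum, 14.6 to 16.6 FPKM in control and 4.83 to 5.37 FPKM in Ras-induced libraries, was nearly all TEK, the 1 endothelial marker tested, which was lower.

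The promoters of the 2 members whose transcripts changed are shown with that of EZH1, the paralog of EZH2, which was not called. Each is the stretch of 250 bases before the RefSeq gene start (table of build GRCh38.p14), read 5′ to 3′ on the gene's strand and found here at 1 exact place in GRCh37. EZH2 lies at chr7:148581384-148581633 on the minus strand, EZH1 at chr17:40897059-40897308 on the minus strand and SCMH1 at chr1:41707979-41708228 on the minus strand. Capitals mark matches, on either strand, to the CCAAT box, to the cell cycle homology region (CHR, searched as TTTGAA and TTCGAA) and to an E2F site (searched as TTCGCGC, as its variant TTGGCGC, as the word TTCCCGC and as the word TTGCCGC). Each match to TTCGAA reads the same on both strands and was counted as 1.
EZH2: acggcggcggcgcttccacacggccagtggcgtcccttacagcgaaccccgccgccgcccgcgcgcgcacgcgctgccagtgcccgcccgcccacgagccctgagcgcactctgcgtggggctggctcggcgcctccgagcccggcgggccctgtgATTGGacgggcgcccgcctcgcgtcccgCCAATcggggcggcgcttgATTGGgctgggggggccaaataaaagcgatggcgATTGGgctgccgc
EZH1: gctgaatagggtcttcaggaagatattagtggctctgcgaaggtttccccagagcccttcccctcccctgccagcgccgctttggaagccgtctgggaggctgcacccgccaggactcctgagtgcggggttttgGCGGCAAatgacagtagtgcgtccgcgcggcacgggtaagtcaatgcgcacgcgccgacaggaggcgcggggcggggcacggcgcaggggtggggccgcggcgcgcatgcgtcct
SCMH1: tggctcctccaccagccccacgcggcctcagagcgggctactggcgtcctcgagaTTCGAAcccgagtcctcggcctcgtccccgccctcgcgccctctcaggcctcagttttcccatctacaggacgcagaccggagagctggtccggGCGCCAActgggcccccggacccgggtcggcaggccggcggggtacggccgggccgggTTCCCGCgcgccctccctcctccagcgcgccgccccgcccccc

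The EZH2 window held 4 CCAAT boxes, between 94 and 9 bases before the start, and neither of the other motifs. At least 4 boxes were found in 0.874% of the 35116 promoter windows searched. SCMH1 had no CCAAT box but 2 E2F matches and 1 CHR match, and EZH1 had 1 E2F match alone. Of the 9 members, 5 held a CCAAT box (32.0% of all promoters do), 4 an E2F match (10.9% of all promoters) and 2 a CHR match (14.3% of all promoters). The background holds every window searched, not only those of the tested genes. RefSeq starts differ from the gene spans given below for some members. The window of EED, from chr11:85955545, lies inside its span, and those of EZH2, EZH1 and RNF2 overlap theirs. These are matches of letters in a short window and show no binding.

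The FPKM of the PRC2 catalytic subunit EZH2 and of the PRC1-associated protein SCMH1 was lower in Ras-induced than in control mitotic libraries. The other 7 members were not called in either direction, nor when any single library was left out. With single libraries left out, the log2 fold change ranged from 0.23 to 0.53 for EZH1, from 0.25 to 0.52 for EED, from -0.28 to -0.08 for SUZ12, from -0.04 to 0.14 for JARID2, from 0.14 to 0.30 for BMI1, from -0.82 to -0.36 for CBX7 and from 0.0059 to 0.37 for RNF2. Thus 2 of the 9 genes were lower and 0 were higher, while over all tested genes 5.67% were called lower and 11.0% higher. The median log2 fold change of the 9 genes was 0.07, and that of all tested genes was 0.10. The split of calls over all genes, 1543 higher and 793 lower, became 1044 higher and 1109 lower after quantile normalization, which moved the median of all genes to 0.01, and both members stayed called lower. The same 2 genes were the members whose groups did not overlap, with both below control; of all tested genes 39.9% were separated between groups, 27.1% above control and 12.8% below it.

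EZH2 (ENSG00000106462, chromosome 7 of GRCh37 from 148504349 to 148581413), which transfers the methyl groups, measured 56.1, 56.5 and 59.5 FPKM in the control libraries and 23.1, 28.4 and 22.7 FPKM in the Ras-induced libraries. The Ras-induced values were all far below the lowest control value, and their mean was 43.1% of the control mean. The means were 57.4 ± 1.86 FPKM and 24.7 ± 3.16 FPKM, which is a log2 fold change of -1.19 with a standard error of 0.10 (adjusted p = 0.00219 from limma). Among all tested genes, 2.32% fell at least as far. EZH2 was called under all 13 alternative settings.

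EZH1, the less abundant catalytic paralog (chr17:40852293-40897067), measured 3.38, 4.19 and 3.57 FPKM in control and 5.92, 5.68 and 3.53 FPKM in Ras-induced libraries. A pair of Ras-induced libraries lay above all controls while the third lay among them. The difference was not significant (log2 fold change 0.34, 95% interval -0.12 to 0.79, adjusted p = 0.267 from limma). EZH2 outnumbered EZH1 in every library. Its FPKM was 16.6, 13.5 and 16.7 times that of EZH1 in control and 3.91, 4.99 and 6.45 times in Ras-induced libraries. The ratio, which does not depend on library scaling, thus had a mean of 15.6 ± 1.83 in control and 5.11 ± 1.27 in Ras-induced cells, without overlap. The difference of -1.63 in the log2 ratio gave p = 0.1 (exact permutation test, two-sided), the smallest p that 3 libraries against 3 allow. EZH1 accordingly made up 5.66 to 6.91% of the summed EZH transcripts in control and 13.4 to 20.4% in Ras-induced libraries. The summed EZH level nevertheless dropped from 61.1 ± 1.81 FPKM to 29.8 ± 3.96 FPKM.

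**Figure D1:**
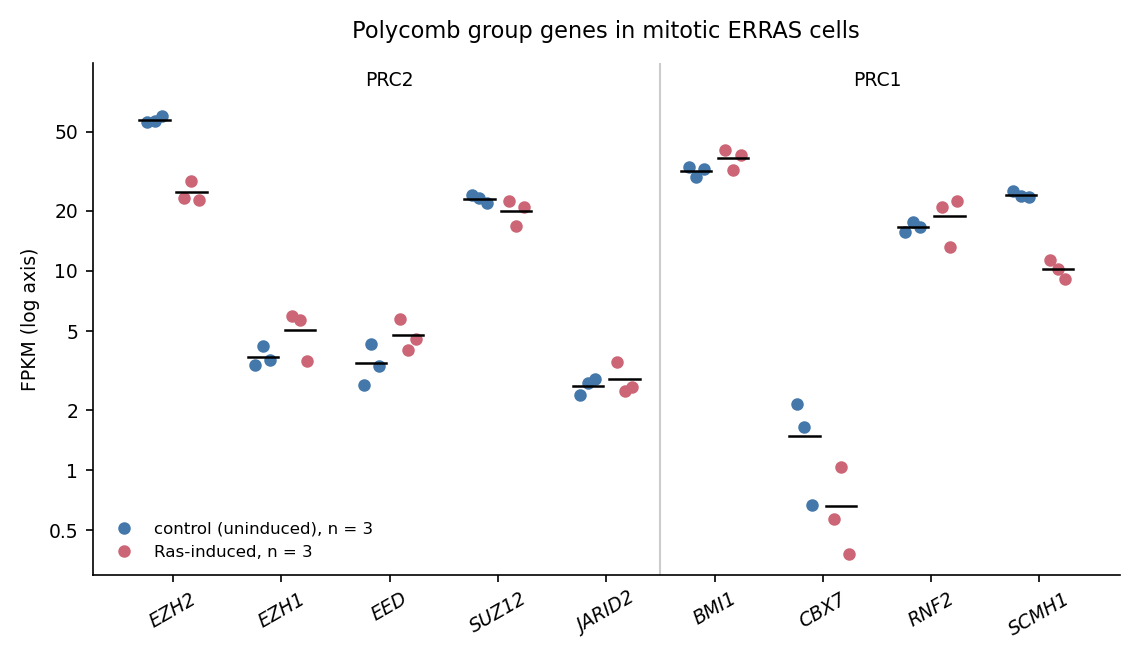
FPKM of the 9 Polycomb group genes on a log axis, with 1 point per library (blue, control; red, Ras-induced; n = 3 each) and a bar at each group mean. EZH2 and SCMH1 are the genes whose red points all lie below the blue ones, and the remaining 7 genes overlap between groups.

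The noncatalytic core subunits SUZ12 and EED were not called. SUZ12, the scaffold of PRC2 (chr17:30264026-30328057), measured 24.0, 23.2 and 21.9 FPKM in control and 22.3, 16.9 and 21.0 FPKM in Ras-induced libraries, so that the groups overlapped. Its log2 fold change was -0.20 (95% interval -0.48 to 0.08, adjusted p = 0.284 from limma), and -0.08 without the second Ras-induced library. EED, which binds the methylated histone tail (chr11:85912254-85989855), measured 2.69, 4.31 and 3.34 FPKM in control and 5.74, 4.00 and 4.57 FPKM in Ras-induced libraries. These groups also overlapped (log2 fold change 0.38, 95% interval -0.06 to 0.82, adjusted p = 0.202 from limma). JARID2, which helps to recruit PRC2 (chr6:15246300-15522273), was between 2.40 and 2.86 FPKM in control and between 2.49 and 3.49 FPKM in Ras-induced libraries. Its log2 fold change of 0.07 (95% interval -0.30 to 0.44, adjusted p = 0.781 from limma) turned to -0.01 after quantile normalization. Within each library EZH2 stood at 2.34, 2.43 and 2.72 times SUZ12 in control and at 1.03, 1.68 and 1.08 times SUZ12 after Ras induction. The log2 ratio differed by -1.01 between groups (exact permutation p = 0.1, two-sided, the smallest possible). Against EED the ratio of EZH2 went from 17.2 ± 3.89 to 5.37 ± 1.57. Against the core subunit RBBP4 the shift was smaller, with a log2 difference of -0.45. That ratio was 1.12, 1.10 and 1.16 in control and 0.645, 1.08 and 0.795 in Ras-induced libraries.

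Of the 10 other PRC2 genes listed, 8 were tested, 1 was lower and 0 were higher. The 1 call makes 12.5% of those tested, near the 16.7% of all tested genes. The gene called was RBBP4, a histone chaperone of the PRC2 core that also serves other chromatin complexes. RBBP4 measured 50.2, 51.3 and 51.3 FPKM in control and 35.8, 26.2 and 28.6 FPKM in Ras-induced libraries. On the log2 scale it fell by 0.75, with a standard error of 0.12 (adjusted p = 0.011 from limma). The call did not hold without control library 2 (adjusted p = 0.055) or without Ras-induced library 3 (adjusted p = 0.0544). Its paralog RBBP7, at 109.6 ± 5.36 FPKM in control and 92.1 ± 4.63 FPKM in Ras-induced cells, was not called (adjusted p = 0.0694 from limma). PHF19 and PHF1, which bring PRC2 to chromatin, had log2 fold changes of -0.30 and 0.02 and were not called either, that of PHF1 turning to -0.09 after quantile normalization. The 2 genes not tested were EPOP, at a mean of 0.315 FPKM, and EZHIP, listed at 0 in every library.

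SCMH1 (ENSG00000010803, chromosome 1 of GRCh37 from 41492874 to 41707978), a homolog of the fly Sex comb on midleg protein that associates with PRC1, measured 25.0, 23.9 and 23.5 FPKM in control and 11.3, 10.3 and 9.06 FPKM in Ras-induced libraries. The values were tight within groups and far apart between them. The means were 24.1 ± 0.803 FPKM and 10.2 ± 1.12 FPKM, the latter 42.3% of the former. On the log2 scale it fell by 1.17, with a standard error of 0.10 (adjusted p = 0.00212 from limma), and SCMH1 was called under all 13 alternative settings. Its relative SCML2 moved the same way, from 2.87 ± 0.127 FPKM to 0.742 ± 0.178 FPKM, with a log2 fold change of -1.16 (adjusted p = 0.00768 from limma). SCML2 reached the mean of 1 FPKM needed for the test only through the control group. Without the filter on low values it was still called (adjusted p = 0.0214 from limma). SCML1 had a log2 fold change of -0.38 and was not called (adjusted p = 0.109). The summed level of the SCM genes was 37.2 to 43.8 FPKM in control and 20.0 to 21.9 FPKM in Ras-induced libraries. Of that sum SCMH1 made up 57.1 to 63.1% in control and 45.3 to 51.6% in Ras-induced libraries.

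RNF2, its paralog RING1 and BMI1 were not called. RNF2, the ubiquitin ligase (chr1:185014658-185071735), measured 15.6, 17.6 and 16.5 FPKM in control and 21.0, 13.1 and 22.3 FPKM in Ras-induced libraries. The second Ras-induced library was the lowest of all 6, and the other two were the highest. The log2 fold change was 0.14 (95% interval -0.32 to 0.60, adjusted p = 0.651 from limma). It was 0.37 without the second Ras-induced library (adjusted p = 0.0661), 0.05 without the first (adjusted p = 0.911) and 0.0059 without Ras-induced library 3 (adjusted p = 0.991), so that its size rested on single libraries. RING1, its paralog, was at 17.2 ± 1.98 FPKM and 20.4 ± 1.78 FPKM, and was not called (adjusted p = 0.208). RNF2 made up 47.2 to 52.2% of the pair in control and 37.2 to 54.5% in Ras-induced libraries, so the ranges overlapped.

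BMI1, the PCGF partner best known as a repressor of the INK4 locus (chr10:22610028-22620413), measured 33.3, 29.6 and 32.4 FPKM in control and 40.2, 32.2 and 38.1 FPKM in Ras-induced libraries. The lowest Ras-induced value lay within the control range, and the log2 fold change was 0.20 (95% interval -0.05 to 0.46, adjusted p = 0.232 from limma). BMI1 shares 22.8% of its exon bases with the readthrough transcript COMMD3-BMI1, so that the split of fragments between them is uncertain. COMMD3-BMI1 averaged 24.9 ± 3.47 and 26.3 ± 4.64 FPKM in the control and Ras-induced groups and was not called (adjusted p = 0.776). The upstream neighbor COMMD3 was higher in Ras-induced cells, at 33.5 ± 2.09 against 23.5 ± 0.370 FPKM, with a log2 fold change of 0.49 (adjusted p = 0.0106 from limma). BMI1 held 27.2 to 31.4% of the summed PCGF transcripts in control and 28.3 to 31.7% in Ras-induced libraries.

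CBX7, a reader of the PRC2 mark (chr22:39516172-39548685), was the least abundant member, at 2.16, 1.65 and 0.671 FPKM in control and 0.570, 1.04 and 0.383 FPKM in Ras-induced libraries. The Ras-induced mean was 44.5% of the control mean, yet the lowest control value lay inside the Ras-induced range. The log2 fold change of -0.55 had a 95% interval from -1.27 to 0.17 (adjusted p = 0.251 from limma). The control values themselves spanned 0.671 to 2.16 FPKM. A lncRNA on the opposite strand covers 17.9% of the exon bases of CBX7, and no source used here says that the counting took account of strand. The paralog CBX8 was higher in Ras-induced cells, from 0.477 ± 0.206 FPKM to 1.89 ± 0.563 FPKM, with a log2 fold change of 0.96 (adjusted p = 0.0354 from limma, and past the threshold under 5 of 12 alternative settings, and when single libraries were left out, only without Ras-induced library 3). CBX8 reached the mean of 1 FPKM needed for the test only through the Ras-induced group. Without the filter on low values it was not called (adjusted p = 0.060 from limma). The ratio of CBX7 to CBX8 was 3.05, 5.32 and 1.62 in control and 0.303, 0.421 and 0.286 in Ras-induced libraries (exact permutation p = 0.1, two-sided, the smallest possible). CBX8 alone did not overlap between groups, so the separation of this ratio shows no change in CBX7. CBX6 remained the largest part of the Polycomb CBX transcripts in every library, with 64.7 to 73.3%.

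**Figure D2:**
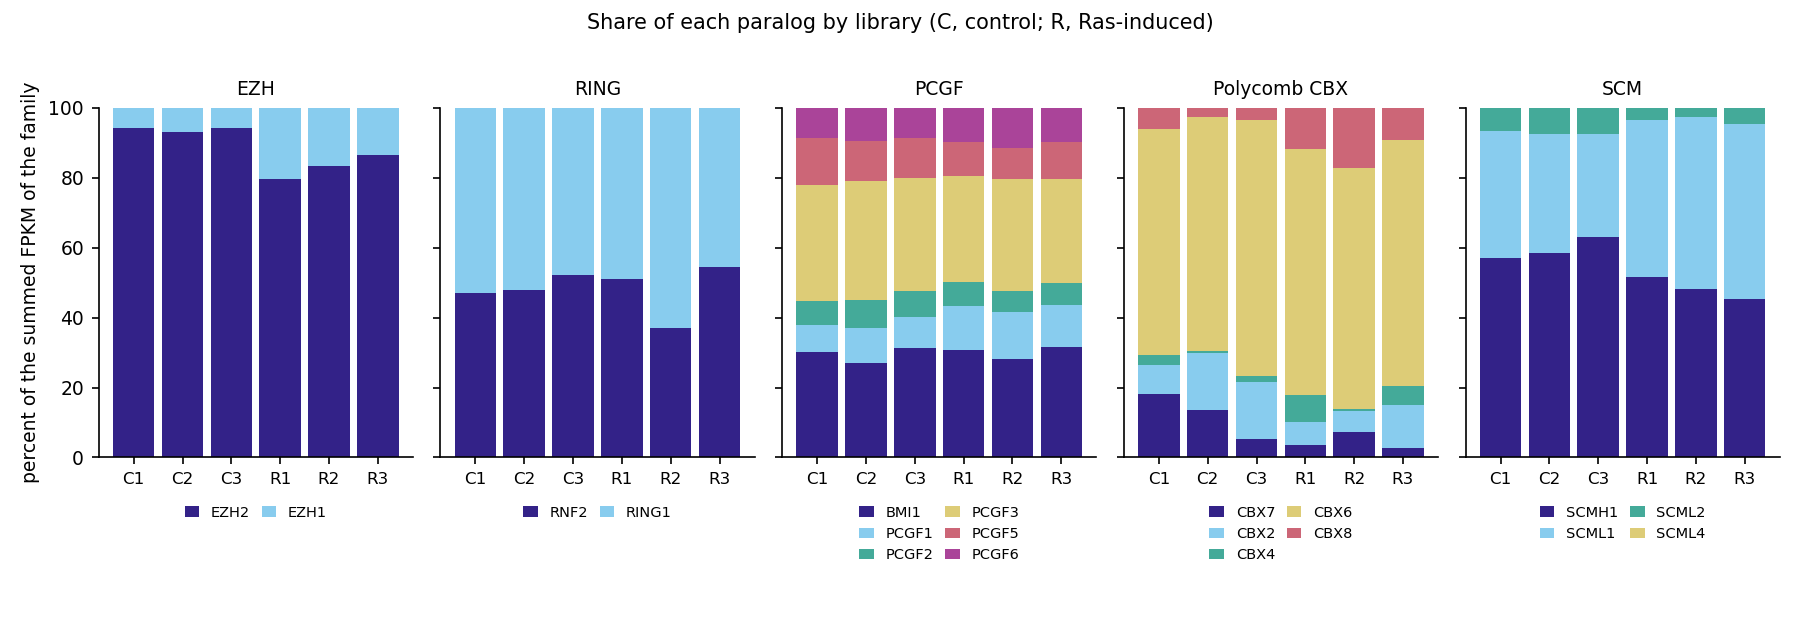
Share of each paralog in the summed FPKM of its family, in percent, for each control (C1 to C3) and Ras-induced (R1 to R3) library. EZH1 grows from 5.66 to 6.91% of the EZH sum in control to 13.4 to 20.4% after induction, while BMI1 stays between 27.2 and 31.7% of the PCGF sum, and SCML4 is listed at 0 throughout.

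Ordered by level in control cells, the members ran from EZH2 through BMI1, SCMH1, SUZ12, RNF2, EZH1, EED and JARID2 to CBX7. SCMH1 and SUZ12 overlapped in range, as did EZH1 with EED and EED with JARID2. In Ras-induced cells BMI1 came first, with 32.2 to 40.2 FPKM, followed by EZH2 with 22.7 to 28.4 FPKM. SUZ12 and RNF2 then overlapped, and SCMH1 had dropped to the fifth place, below RNF2. EZH1 and EED again overlapped.

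Among the 26 other PRC1 genes listed, 23 were tested, and 5 were higher and 2 lower in Ras-induced cells. The 7 calls make 30.4% of those tested, against 16.7% of all tested genes. This contrast turned when the first Ras-induced library was left out. In the other fits that left out a library the PRC1 share stayed above that of all tested genes, but on few calls. The share was 13.0% against 10.3% without the second Ras-induced library. It was 8.70% against 6.15 to 6.99% without the third Ras-induced library or the first or second control. With single libraries left out 1 to 5 were called, from 1 of 23 (4.35%, against 7.45% of all tested genes) without the first Ras-induced library to 5 of 23 (21.7%, against 13.4%) without control library 3. Besides CBX8, which was tested only through its Ras-induced values, the higher genes were E2F6, PCGF1, PHC2 and PCGF6. E2F6, a repressive E2F that brings variant PRC1 to promoters, had a log2 fold change of 0.71 (8.82 ± 0.525 to 15.2 ± 2.07 FPKM, adjusted p = 0.0125 from limma). PCGF1, of the variant PRC1 that contains KDM2B, had one of 0.65 (9.52 ± 1.17 to 15.5 ± 1.22 FPKM, adjusted p = 0.0141 from limma). E2F6 was no longer called without the first or second control or Ras-induced library 1 or 3 (adjusted p = 0.0516 to 0.064), nor PCGF1 without the first control or Ras-induced library 1 or 3 (adjusted p = 0.0504 to 0.0621). PHC2, the most abundant of the polyhomeotic genes, and PCGF6 had 0.40 and 0.36. These were close to the threshold, with adjusted p = 0.0352 and 0.0469 from limma, and were called under 6 and 2 of 13 alternative settings. Leaving out any library ended the call of PCGF6, and leaving out the second control or any Ras-induced library that of PHC2. The lower genes were SCML2, which was tested only through its control values, and AUTS2. AUTS2 had a log2 fold change of -0.55 (adjusted p = 0.0456 from limma, called under 4 of 13 alternative settings and in no fit that left out a library). The most abundant genes not called were PCGF3, RING1 and RYBP. PCGF3, at 35.9 ± 2.05 and 37.4 ± 2.18 FPKM, had a log2 fold change of 0.06 that turned to -0.05 after quantile normalization.

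The deubiquitinase complex PR-DUB, which removes the PRC1 mark, and the DNA-binding complex PhoRC contributed 13 listed genes, of which 11 were tested and 0 were called; 2 of the 11 (18.2%) had an unadjusted p under 0.05, against 33.6% of all tested genes. The 2 genes were BAP1, the deubiquitinase itself, at 40.9 ± 3.42 and 33.8 ± 2.88 FPKM, and its cofactor ASXL1, with log2 fold changes of -0.27 and -0.37. BAP1 passed the threshold after quantile normalization (adjusted p = 0.0326 from limma). YY1, the DNA-binding factor of PhoRC, had a log2 fold change of 0.19 and was not called (adjusted p = 0.292). Of the 2 demethylases that erase the PRC2 mark, KDM6B was higher, at 5.05, 4.00 and 4.49 FPKM in control and 8.0, 7.16 and 6.15 FPKM in Ras-induced libraries (log2 fold change 0.55, adjusted p = 0.0359 from limma, called under 3 of 13 alternative settings and in no fit that left out a library). KDM6A had a log2 fold change of -0.14 and was not called (adjusted p = 0.491).

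**Figure D3:**
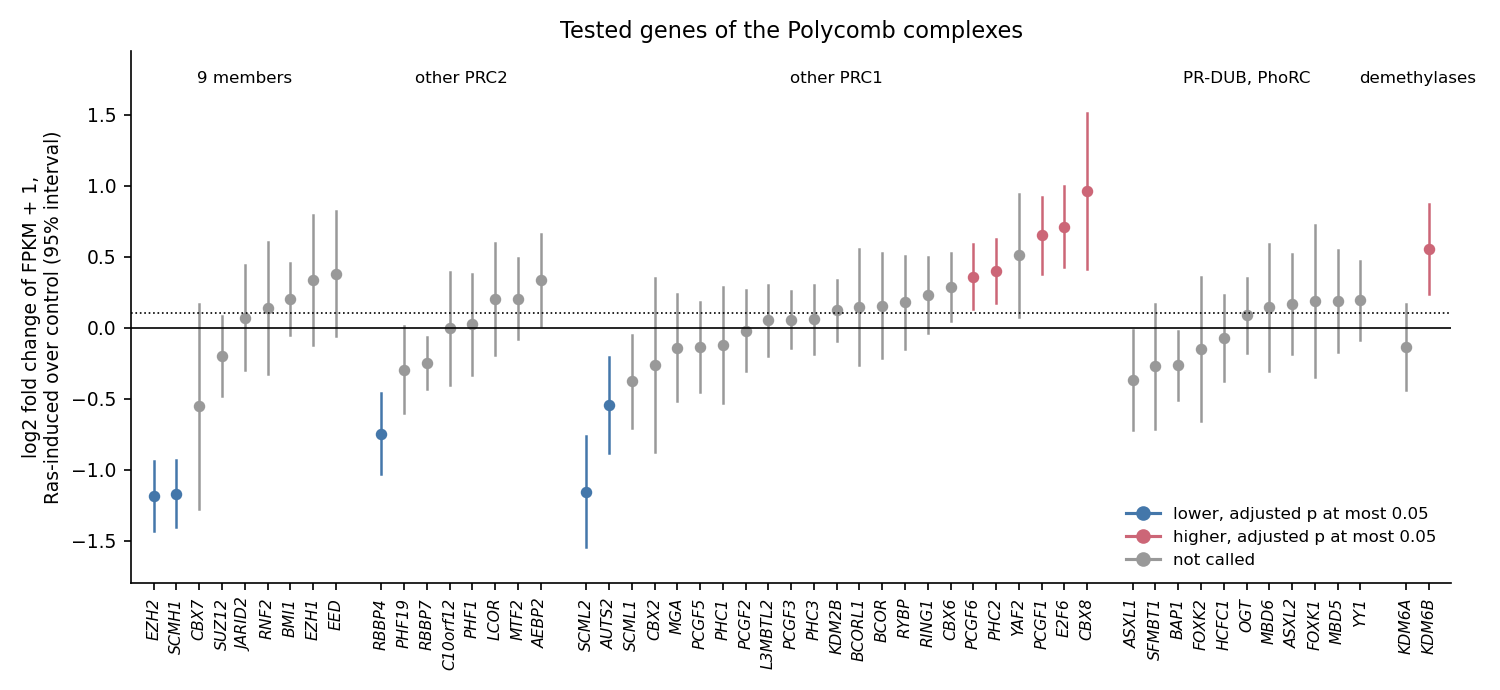
Log2 fold change of FPKM + 1, Ras-induced over control, for the 53 tested Polycomb genes, with the 95% interval from limma for each gene. Blue and red mark genes called lower (5) and higher (6), grey those not called, and the dotted line is the median of all tested genes (0.10).

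Both INK4 genes, which the Polycomb complexes are known to silence in fibroblasts, were higher in Ras-induced mitotic cells. CDKN2A, whose products include p16, measured 9.05, 8.61 and 9.20 FPKM in control and 17.5, 16.0 and 15.7 FPKM in Ras-induced libraries (log2 fold change 0.80 with a standard error of 0.09, adjusted p = 0.00368 from limma). These values are for the gene as a whole, and p16 was not measured apart from the gene's other transcripts. CDKN2B, which encodes p15, measured 3.18, 1.59 and 2.15 FPKM in control and 23.3, 16.6 and 16.1 FPKM in Ras-induced libraries (log2 fold change 2.58 with a standard error of 0.22, adjusted p = 0.00212 from limma). Both were called under all 13 alternative settings. By contrast, none of 20 developmental regulators listed as classic Polycomb targets reached a mean of 1 FPKM. Of these, 10, among them PAX3, NKX2-1 and SOX1, were listed at 0 in all 6 libraries, and the highest single value of any was 0.526 FPKM, for GATA6.

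EZH2 transcripts are known to rise with proliferation, so cell cycle genes are given beside it. Of 15 tested S phase genes 10 (66.7%) were lower and 0 higher in Ras-induced cells, against 5.67% lower and 11.0% higher of all tested genes, with a median log2 fold change of -0.84, and their summed level was 806.8 to 870.0 FPKM in control and 482.7 to 609.0 FPKM in Ras-induced libraries. TYMS, MCM3 and MCM6 had the largest falls, with log2 fold changes of -1.67, -1.30 and -1.26, and CCNE1 was not called (-0.03). Of 12 mitotic markers 8 (66.7%) were lower and 0 higher, with a median of -0.32, led by KIF20A (-0.81), TOP2A (-0.63) and HMMR (-0.60), of which the latter pair lost their calls without any of several single libraries. Their summed level was 2166 to 2307 FPKM in control and 1714 to 1875 FPKM in Ras-induced libraries. The summed level of the 8 fibroblast markers, of which COL1A2 and THY1 were called lower, was 5446 to 6333 FPKM in control and 4019 to 5370 FPKM in Ras-induced libraries. COL1A2 was not called without the second control or the first Ras-induced library (adjusted p = 0.0576 and 0.0518 from limma). The part of these differences in the falls of EZH2 and SCMH1 was not tested.

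**Figure D4:**
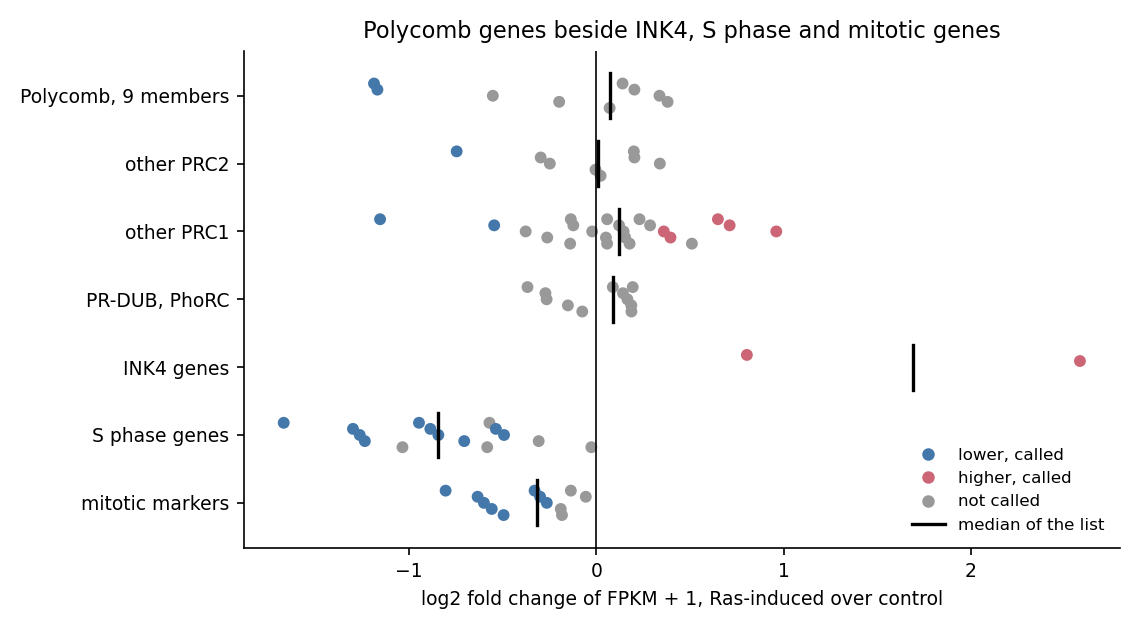
Log2 fold change of FPKM + 1, Ras-induced over control, with 1 point for each tested gene of a list and a black bar at the median of the list (blue, called lower; red, called higher; grey, not called). The 9 Polycomb genes have a median of 0.07 with EZH2 and SCMH1 near -1.2, whereas the S phase genes have a median of -0.84.

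The genes whose values over the 6 libraries were nearest to those of EZH2, by root mean square difference in log2(FPKM + 1) after subtraction of each gene's control mean, were PCSK7 (0.10), GABBR2 (0.10), PKDCC (0.10), PKN3 (0.11) and CTB-129P6.4 (0.11). Nearest to SCMH1 were THY1 (0.05), MYBL1 (0.06), CCDC85C (0.06), PALLD (0.07) and SLC8A1 (0.08). Nearness to a gene that fell fixes the direction of these 10 genes, and none of them is a Polycomb gene of the lists used here. Of possible sources of misassigned fragments, the pseudogene EZH2P1 was listed at 0 in every library, and SUZ12P1 measured 5.11 ± 0.954 FPKM in control and 4.76 ± 0.453 FPKM in Ras-induced cells.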

How the data were processed

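Poly(A) RNA of 6 samples of mitotic ERRAS cells (3 uninduced, 3 induced) was sequenced as paired-end reads. According to the labels and the methods, reads were trimmed with Trim Galore 0.3.0 and aligned to hg19 with Tophat2, using Ensembl build 73 junctions, and the authors calculated FPKM per gene and library with Cufflinks. The versions of Tophat2 and Cufflinks are not given in the sources used here. The deposited FPKM columns name the group and a number but not the sample. They were used as replicates of their group, since the study describes independent repeats; the labels do not say so, and p-values measure the spread between these libraries. A further 18 columns bear no name and were not used as libraries; 120 rows with more than 6 values and a second header line were left out. The cuffdiff comparison deposited by the authors, with group FPKM, fold changes and p-values, was not used.

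The two-sided test was the moderated one of limma 3.58.1 (R 4.3.3), fitted to log2(FPKM + 1) with a trend of variance on mean, for genes averaging 1 FPKM or more, and adjusted over all 13993 tested genes. Intervals at 95% are for single genes. Ratios within a library were tested by exact permutation. No count test was run, because FPKM is not a count. On values simulated from these 13993 genes, of which 200 were changed, 61 of 100 genes changed by 1 on the log2 scale and 92 of 100 changed by 2 were called, with 4 unchanged genes called. Far more genes, 2336, were called in the data, and the adjustment depends on that number. The simulated shares are therefore not the power of the fit to the data. Coordinates are from GENCODE 44 lifted to GRCh37. Tables were built with Python 3.11.15, pandas 2.3.3 and numpy 2.4.6, and plots with matplotlib 3.10.9.

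The members and the gene lists were chosen with earlier results of these data known. Named are the 9 members, every called gene of the other Polycomb lists, the 3 most abundant genes not called in each, the genes sharing fragments, HRAS, the INK4 genes, up to 3 called genes of each companion list and the 5 genes nearest to each called member. Markers, ERK targets (DUSP6 and FOSL1), SCML1, EPOP, CCNE1 and the noted zeros were taken from the lists after their values were seen. The alternatives were a pseudocount of 0.1, no filter or one at 5 FPKM, a fit with the replicate block, a fit with no trend, scaling by quantiles or by the upper quartile, omission of single libraries, and a required log2 change of 1 or more. The shares of paralogs without single libraries were added after seeing the data. Of the ratios within a library, only that of EZH2 to EZH1 was among the planned results.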

Additional observations from a re-analysis of the deposited data

How the results depend on the processing

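EZH2 and SCMH1, and no other member, were called under every alternative, so that 2 members were called each time. The log2 fold change ranged from -1.30 to -1.13 for EZH2 and from -1.27 to -1.09 for SCMH1. Over all genes, 2336 were called, against 1518 without a filter on low values, 548 when a change of 1 or more on the log2 scale was also required, and 860 to 1872 when single libraries were left out. Quantile normalization turned the split from 1543 higher and 793 lower to 1044 and 1109, and upper-quartile scaling to 921 and 1101. Among the other PRC2 genes 1 was called, 2 after upper-quartile scaling (RBBP7 in addition) and 0 to 1 without single libraries. Among the other PRC1 genes 7 were called, 3 without a filter, 4 without a trend and 1 to 5 without single libraries. Of the PR-DUB and PhoRC genes 0 were called, but 1, BAP1, after quantile normalization or upper-quartile scaling. KDM6B, the 1 demethylase called, was not called (0) without a filter, with a mean of at least 5 FPKM, after quantile normalization or upper-quartile scaling, or in any fit that left out a library.

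Directions that turned all belonged to genes or shares that were not called. JARID2 had -0.0088 after quantile normalization, -0.0108 after upper-quartile scaling and -0.0424 without the first Ras-induced library (single libraries left out, -0.0424 to 0.1399). COMMD3-BMI1 had -0.049, -0.0341, -0.0434 without the third control and -0.0608 without the second Ras-induced library (-0.0608 to 0.1677). PHF1 had -0.088, -0.0849, -0.1449 without the third control and -0.0104 without the second Ras-induced library (-0.1449 to 0.1196). PCGF3 had -0.0526 and -0.0505 under both scalings, and SUZ12P1 had 0.0468 without the first control (-0.1455 to 0.0468). The share of BMI1 changed by -0.5264 percentage points without the second control and -0.0727 without the third Ras-induced library (-0.5264 to 1.6277), and that of RNF2 by 3.6022 without the second Ras-induced library (-5.0496 to 3.6022). The difference in the log2 ratio of EZH2 to EZH1, -1.63, was -1.52 with a pseudocount of 1 and -1.81 to -1.45 without single libraries; the replicate block cannot change it in this balanced design (-1.63).

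Libraries with the same number deviated from their groups with correlations of -0.00266, 0.0433 and 0.0481 across genes. Those with different numbers gave -0.0679 to 0.0311. All these values were small, and the numbers were not taken to pair the libraries, but a pairing is not excluded. With the replicate block 2310 genes were called, EZH2 and SCMH1 among them, while HRAS, PCGF6, CBX8 and AUTS2 were not. Without read counts the precision of low genes such as CBX7 is not known beyond the spread of 3 libraries.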
